A study of Mus musculus with 20 samples.

Results

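B lymphocyte and lymph node transcripts were examined in inguinal white adipose tissue (iWAT) and brown adipose tissue (BAT) through 8 genes chosen by name: Cd79a, Cd79b, Ms4a1, Cr2, Fcer2a, Pax5, Cd22 and Blk. These are 8 of the 25219 genes in the deposited table. RNA came from adipose depots of male mice of a mixed C57Bl/6 background, as 20 libraries, 5 in each of 4 groups of tissue and genotype. Ai-α4KO mice carried floxed alleles of α4, the phosphatase-binding protein encoded by Igbp1, together with an Adiponectin-CreERT2 transgene that tamoxifen activates. Control mice carried the floxed alleles without the transgene, and the labels call their genotype WT. Both genotypes received 5 tamoxifen injections over 6 days from 2 months of age, and tissue was taken 1 week after recombination. The adiponectin promoter drives Cre in adipocytes, so lymphocytes of the Ai-α4KO mice were not meant to lose the gene. Whole depots were used, and the labels do not say whether 1 mouse gave both tissues.

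B lymphocytes recognise antigen through a membrane immunoglobulin that cannot signal alone. It pairs with Igα and Igβ, the products of Cd79a and Cd79b, whose cytoplasmic tails are phosphorylated by Src family kinases such as Blk. Cr2 (CD21) is the complement receptor that lowers the threshold of that signal, and Cd22 is a sialic acid-binding receptor that dampens it. Ms4a1 encodes CD20, Fcer2a encodes CD23, the low-affinity receptor for IgE, and Pax5 is the transcription factor that holds cells to the B lineage. The inguinal fat pad encloses a lymph node, in which B cell follicles lie beside T cell areas entered through high endothelial venules, whereas resting adipose tissue holds few B cells.

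In the coordinates of the deposited table, which match mm10, Cd79a lies on chromosome 7 from 24897511 to 24902197 on the plus strand. The other genes lie on the minus strand. Cd22 is also on chromosome 7, from 30865404 to 30880342. Cd79b is on chromosome 11 (106311341 to 106314529), Ms4a1 on chromosome 19 (11250603 to 11266151) and Cr2 on chromosome 1 (195136811 to 195176715). Fcer2a is on chromosome 8 (3681737 to 3694174), Pax5 on chromosome 4 (44531506 to 44710440) and Blk on chromosome 14 (63372837 to 63417187). Each gene's value sums reads over its transcripts, so exons and isoforms were not separated.

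The RefSeq promoters of 4 of the genes are shown because Cd79a, Cr2 and Fcer2a followed each other closely across libraries, while Cd22 did so least of the 8. Each is the 250 bases before a RefSeq start site in GRCm38.p6, read 5′ to 3′ on the gene's strand. Capitals mark matches, on either strand, to an ETS core (GGAAGT) or to an EBF-type motif (CCCNNGGG), the letters bound by families that include PU.1 and EBF1. The windows are chr7:24897247-24897496 for Cd79a, chr1:195176720-195176969 for Cr2, chr8:3694175-3694424 for the first of 3 start sites of Fcer2a and chr7:30879029-30879278 for Cd22. The Cd22 window lies inside the gene as placed above, whose 5′ end is at 30880342. The other windows shown lie upstream of their genes.
Cd79a: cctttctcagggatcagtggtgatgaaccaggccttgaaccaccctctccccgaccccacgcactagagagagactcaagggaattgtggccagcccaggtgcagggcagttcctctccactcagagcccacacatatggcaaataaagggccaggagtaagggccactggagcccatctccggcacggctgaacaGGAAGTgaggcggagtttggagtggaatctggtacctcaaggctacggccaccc
Cr2: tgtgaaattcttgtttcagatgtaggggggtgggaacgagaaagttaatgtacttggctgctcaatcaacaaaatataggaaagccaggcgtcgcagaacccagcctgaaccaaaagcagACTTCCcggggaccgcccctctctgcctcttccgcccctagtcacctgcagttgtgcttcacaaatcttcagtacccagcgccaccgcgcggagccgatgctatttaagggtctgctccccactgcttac
Fcer2a: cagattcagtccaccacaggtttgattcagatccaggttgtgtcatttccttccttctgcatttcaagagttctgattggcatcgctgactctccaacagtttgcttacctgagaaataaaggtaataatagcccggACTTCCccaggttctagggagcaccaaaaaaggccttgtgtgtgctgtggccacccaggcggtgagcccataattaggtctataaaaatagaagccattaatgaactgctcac
Cd22: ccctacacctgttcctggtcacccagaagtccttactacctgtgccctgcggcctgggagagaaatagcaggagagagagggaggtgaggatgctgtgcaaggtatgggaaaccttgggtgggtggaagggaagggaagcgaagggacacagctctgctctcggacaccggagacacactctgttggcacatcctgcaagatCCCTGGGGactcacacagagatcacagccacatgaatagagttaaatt
The Cd79a, Cr2 and first Fcer2a windows each held 1 ETS core and no EBF-type match, while the Cd22 window held 1 EBF-type match and no ETS core. The other Fcer2a windows and that of Pax5, which followed Cd79a closely (Pearson r = 0.94 over 20 libraries), held neither. Among all 32851 promoter windows of the table, 19.7% held an ETS core and 11.8% an EBF-type match. The octamer ATGCAAAT, which stands in 1.60% of all windows, was in none of the 7 windows of the 5 genes with an entry. The E box CANNTG was in 66.2% of all windows and in 5 of those 7, among them Pax5. These matches are letters in a window and do not show binding.

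Levels are in CPM, counts divided by TMM-adjusted library totals. Igbp1, the targeted gene, averaged 10.8 ± 0.394 CPM in iWAT of Ai-α4KO mice and 67.2 ± 7.01 in that of Control mice (SD, n = 5 each). In BAT the averages were 17.0 ± 4.82 and 93.9 ± 7.29. Every Ai-α4KO library lay below every Control library of its tissue. Between 24023371 and 50384446 reads were counted per library.

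Control iWAT libraries 1 and 4 stood apart in every B lymphocyte gene. Cd79a was at 160.0 CPM in library 1 and 59.4 in library 4, against 1.83, 2.25 and 2.17 CPM in Control libraries 2, 3 and 5. Cr2 was at 60.5 and 24.4 CPM in libraries 1 and 4, against 0.404 to 0.586 in the other 3, and Fcer2a at 45.8 and 17.5 against 0.488 to 0.586. Pax5 was at 14.4 and 6.74 CPM against 0.0751 to 0.217. All 8 genes were higher in both of these libraries than in any of the other 18, as were 2.18% of the 15230 genes tested over 20 libraries. Relative to the highest of the other Control iWAT libraries the excess was 30.5-fold to 103-fold in library 1 (median 59.6), and 12.2-fold to 41.6-fold in library 4 (median 21.2). In bulk tissue, more B cells and more RNA per B cell cannot be told apart.

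**Figure D1:**
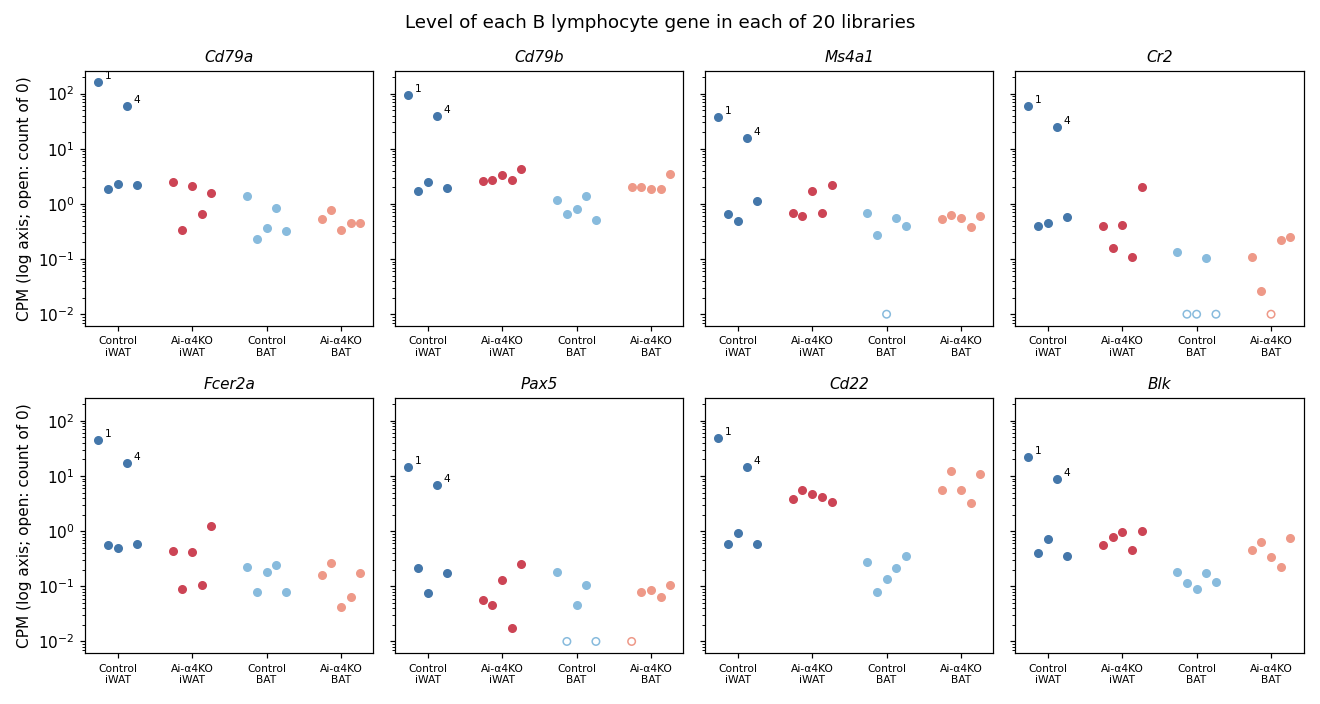
Level of each gene in CPM on a log axis, by tissue and genotype, with 1 point per library and open circles for a count of 0. Control iWAT libraries 1 and 4, numbered, lie above all other libraries in all 8 panels, and Cd22 is the gene whose Ai-α4KO libraries also lie far above the remaining Control libraries in both tissues.

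The genes kept nearly the same proportions in the 2 libraries. By FPKM, which divides by transcript width and allows levels of different genes to be compared, Cd79a led with 114 in library 1 and 41.5 in library 4, followed by Cd79b with 73.6 and 30.8. Ms4a1 (17.2 and 7.02), Fcer2a (18.3 and 6.88), Pax5 (11.2 and 5.17), Cd22 (10.6 and 3.06), Cr2 (9.19 and 3.64) and Blk (8.30 and 3.25) came next. Library 1 exceeded library 4 by 2.14-fold (Pax5) to 3.40-fold (Cd22) in CPM. T cell genes did not share that order. Of the 14 T cell genes listed in the table, 13 were higher in both libraries than in the other 18, but the ratio of library 1 to library 4 ran from 0.580 to 1.71 with a median of 0.750. The 2 libraries thus held B and T cell transcripts in different ratios.

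Some genes of lymph node structure were high in the same libraries. Of the 15 genes listed for lymph node stroma and venules, 5 were higher in both libraries than in the other 18, and of 12 lymphoid chemokines and receptors 6 were, beside the 2.18% of all genes given above. Glycam1, the mucin-like ligand made by high endothelial venules, was at 40.6 and 33.8 FPKM in libraries 1 and 4, at 0.257 to 0.356 in the other Control iWAT libraries and at 0 in every Control BAT library. Chst4, the sulfotransferase that finishes that ligand, was at 0.369 and 0.469 FPKM and at most 0.0283 in the other 18 libraries. Ccl21a and Ccl19, the chemokines of T cell areas, were at 82.7 and 27.6 FPKM in library 1 and at 90.0 and 36.1 in library 4, and the other 3 Control iWAT libraries held 4.28 to 7.82 and 0.696 to 1.05. Ltb, a lymphotoxin subunit made by lymphocytes, was at 78.9 and 33.9 against 0.966 to 1.25 FPKM, and Cxcr5, the follicle-homing receptor, at 8.03 and 2.44 against 0.0765 to 0.202. These 6 genes were named after their values were seen, and other stroma genes did not share the pattern. Lyve1, a lymphatic endothelial receptor, was at 40.3 and 33.2 FPKM, below the 46.4 to 52.1 of the other Control iWAT libraries. Pdpn, the podoplanin gene, was at 9.18 and 5.83 against 6.71 to 12.4 FPKM, and Enpp2, the autotaxin gene, at 52.3 and 57.4 against 41.5 to 72.8. None of 10 macrophage, 10 adipocyte, 6 brown adipocyte, 10 skeletal muscle or 6 endothelial genes did so. Library 4 also held skeletal muscle transcripts at a summed 4898 FPKM, against 72.5 in library 1 and at most 119 in the other Control iWAT libraries. Ai-α4KO iWAT library 1 held 3661, and BAT libraries 607 to 5403 (Control) and 9160 to 30247 (Ai-α4KO).

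**Figure D2:**
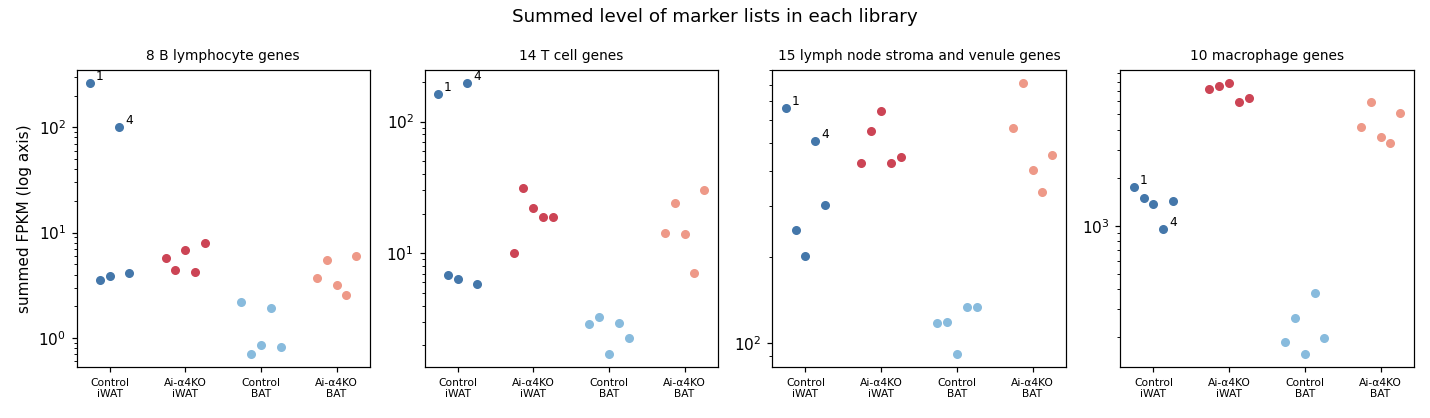
Summed FPKM on a log axis of 8 B lymphocyte, 14 T cell, 15 lymph node stroma and venule and 10 macrophage genes, with 1 point per library and Control iWAT libraries 1 and 4 numbered. B lymphocyte sums of 262 and 101 and T cell sums of 162 and 196 set these libraries apart, whereas macrophage sums of 1742 and 954 lie near the other Control iWAT libraries, at 1372 to 1496, and below all Ai-α4KO iWAT libraries.

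Against this, the genotypes were compared within iWAT to ask whether loss of α4 in adipocytes changed B lymphocyte transcripts. Calls required an adjusted p under 0.01 in edgeR's quasi-likelihood test and at least a 2-fold change. Of the 8 genes, 7 passed the filter on low counts and Pax5 did not. Cd79a was called lower in Ai-α4KO iWAT, by -5.01 on the log2 scale (standard error 1.36, adjusted p = 0.00885 by edgeR), making 1 of 7 where 10.7% of the 14604 genes tested were called lower. Cr2 (-4.83, adjusted p = 0.0196 by edgeR), Fcer2a (-4.87, adjusted p = 0.0132) and Cd79b (-3.15, adjusted p = 0.026) missed the threshold. Ms4a1 (-3.25, adjusted p = 0.0316 by edgeR), Blk (-3.09, adjusted p = 0.0296) and Cd22 (-1.63, adjusted p = 0.221) missed it too. The Cd79a call was lost when Control library 1 or 4 or any 1 Ai-α4KO library was left out. Its log2 difference was then -3.56 without Control library 1, -4.89 without Control library 4 and -4.75 to -5.30 without an Ai-α4KO library. The adjusted p of Cd79a ran from 9.20e-05 to 0.372 over 22 alternatives. At an adjusted p below 0.05, 6 of the 7 were lower, with 12.4% of all genes, and DESeq2 called the same number lower at 0.01, with 12.3% of all genes. None was called higher by edgeR or DESeq2, or had an unadjusted p under 0.05 in that direction, where edgeR called 11.3% of genes higher.

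These differences rested on the 2 libraries that stood apart, and the groups overlapped in all 8 genes. Cd79a in Ai-α4KO iWAT was at 2.46, 0.342, 2.13, 0.644 and 1.58 CPM, below or just above Control libraries 2, 3 and 5. Pax5 was at 0.0179 to 0.259 CPM in Ai-α4KO iWAT, a range that covers the 0.0751 to 0.217 of the same 3 Control libraries. Cr2 had 6 to 16 counts in 4 Ai-α4KO libraries and 77 in library 5, which was also the highest of its group for Fcer2a (1.22 CPM), Ms4a1 (2.20 CPM) and Cd79b (4.33 CPM). Without Control iWAT libraries 1 and 4, no gene was called lower or had an unadjusted p under 0.05 in that direction, and Cd79a differed by -0.63 (standard error 0.56, adjusted p = 0.372 by edgeR). The differences of Cd79b, Ms4a1, Cr2 and Blk turned to 0.55, 0.55, 0.26 and 0.55 on the log2 scale, with adjusted p between 0.107 and 0.819 in edgeR. For Cr2 the sign rests on Ai-α4KO library 5, since its mean log2 CPM, which weights libraries alike, differed by -0.28.

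**Figure D3:**
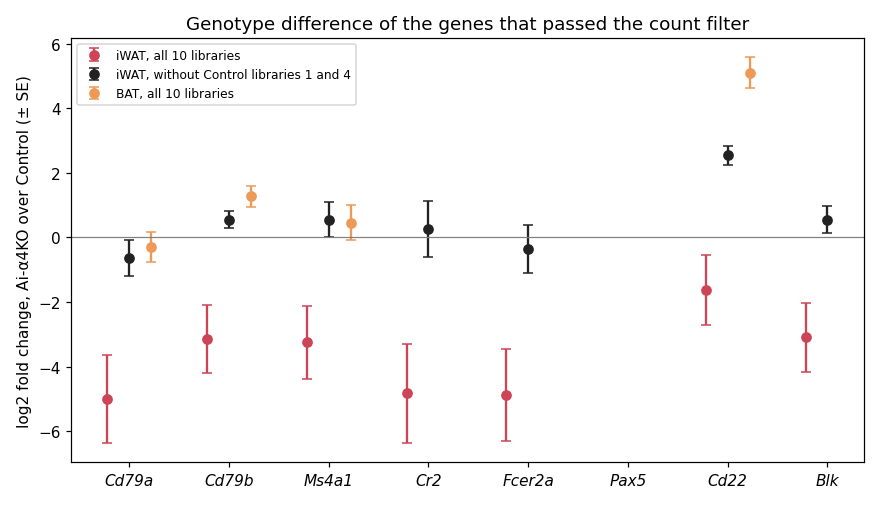
Log2 fold change of Ai-α4KO over Control with its standard error for the genes that passed the count filter, in iWAT with all libraries, in iWAT without Control libraries 1 and 4, and in BAT. Cd22 moves from -1.63 to 2.54 in iWAT and stands at 5.10 in BAT, and the other genes without those libraries lie between -0.63 and 0.55.

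Without those 2 libraries, Cd22 was called higher in Ai-α4KO iWAT. In Ai-α4KO iWAT it was at 3.91, 5.49, 4.72, 4.15 and 3.37 CPM, 4.33 ± 0.810 (SD, n = 5). Control iWAT libraries 2, 3 and 5 held 0.590, 0.939 and 0.586 CPM, and libraries 1 and 4 held 49.7 and 14.6. All 5 Ai-α4KO libraries therefore lay between the low and the high Control libraries. Without libraries 1 and 4 the difference was 2.54 on the log2 scale (standard error 0.29, adjusted p = 9.61e-05 by edgeR), and Cd22 was 1 of 7 genes called higher, where 11.9% of the 14822 genes tested were. Over all 22 alternatives the log2 difference ran from -1.95 to 2.54 and the adjusted p from 9.61e-05 to 0.994. Those 2 libraries were left out because of their B lymphocyte levels, so this value describes the remaining 3 Control libraries. Cd79b also separated the genotypes there, at 2.57 to 4.33 CPM in Ai-α4KO iWAT against 1.68 to 2.48, but was not called. Cd22 and Cd79b thus had every Ai-α4KO library above the 3 Control libraries, 2 of 8 genes where 27.9% of genes tested did (exact permutation p = 0.036 each, the smallest that 5 against 3 libraries allow, unadjusted).

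In BAT, B lymphocyte transcripts were scarcer. Cr2 had no count in 3 of 5 Control libraries and Pax5 none in 2. Of the 160 values of 8 genes in 20 libraries, 8 were at 0, all in BAT, where 3 counts would have stood at 0.0813 to 0.136 CPM. Only Cd79a, Cd79b, Ms4a1 and Cd22 passed the filter. Of these 4, Cd22 and Cd79b were called higher in Ai-α4KO BAT, where 18.2% of the 14344 genes tested were, and none lower, where 13.3% were. Cd22 passed the filter through the Ai-α4KO libraries, where it is high, so that filter partly fixed its direction and the count of 2 is a description. DESeq2 gave the same 2 and 0, where it called 19.6% of all genes higher, and at an unadjusted p under 0.05 neither tool had a member lower.

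Cd22 in BAT rose from 0.273, 0.0782, 0.136, 0.212 and 0.358 CPM in Control to 5.58, 12.2, 5.59, 3.28 and 11.1 CPM in Ai-α4KO libraries. The lowest Ai-α4KO library thus lay above the highest Control library. The difference was 5.10 on the log2 scale (standard error 0.48, adjusted p = 2.71e-06 by edgeR), from 2 to 9 counts per Control library and 102 to 456 per Ai-α4KO library. Cd79b, the Igβ chain, rose from 0.911 ± 0.359 to 2.26 ± 0.707 CPM (SD, n = 5 each), or by 1.27 on the log2 scale (standard error 0.32, adjusted p = 0.00438 by edgeR). It was 1.18, 0.665, 0.816, 1.38 and 0.517 CPM in Control and 2.03, 2.01, 1.86, 1.87 and 3.51 in Ai-α4KO BAT, with no overlap. Its call was lost in 7 of 21 alternatives, over which the adjusted p ran from 3.43e-04 to 0.194. Among them were the edgeR fit of all 20 libraries (adjusted p = 0.194), limma on log2(FPKM + 1), where the difference of 0.76 was under 2-fold, and the fits without Ai-α4KO BAT library 5 or Control BAT library 2, 3 or 5. Cd79a, the partner chain, did not pass the test, at 0.625 ± 0.478 CPM in Control and 0.513 ± 0.164 in Ai-α4KO BAT (log2 fold change -0.30, adjusted p = 0.598 by edgeR). Ms4a1 was at 0.384 ± 0.265 and 0.543 ± 0.0966 CPM (log2 fold change 0.46, adjusted p = 0.481 by edgeR).

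Single values of all 8 genes were also compared by exact permutation tests on log2 CPM, 16 tests over both tissues, in which 5 against 5 libraries cannot give a p below 0.0079. In BAT, Cd22, Cd79b and Blk reached that smallest p, each with all Ai-α4KO libraries above all Control libraries, making 3 of 8. Among the genes that passed the count filter in BAT, 2 of the 4 members (Cd22 and Cd79b) and 24.7% of all genes did so, and Blk had not passed it. Blk, the Src family kinase, was at 0.0906 to 0.182 CPM in Control and 0.225 to 0.738 CPM in Ai-α4KO BAT, from 2 to 5 and 7 to 24 counts per library. Cr2, Fcer2a and Pax5 overlapped between genotypes in BAT (exact permutation p = 0.27, 0.61 and 0.79). In iWAT none of the 8 genes separated the groups, where 20.7% of genes had every Ai-α4KO library above every Control library, and the smallest of the exact permutation p values was 0.063, for Cd79a. These p values are not adjusted.

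The ratio of Cd22 to Cd79a, computed after their values were seen, shows how the 2 genes parted. By FPKM, Cd22 stood at 0.0739 to 0.124 of Cd79a in all 5 Control iWAT libraries, those with high B lymphocyte levels included. In Ai-α4KO iWAT the ratio was 0.478 to 4.82, in Control BAT 0.0590 to 0.338 and in Ai-α4KO BAT 2.19 to 7.30. The genotypes did not overlap in either tissue. Fcer2a kept ratios to Cd79a of 0.121 to 0.172, 0.0938 to 0.434, 0.0923 to 0.281 and 0.0703 to 0.216 in the same 4 groups, which overlapped throughout. Cd79b to Cd79a ratios were 0.647 to 1.21 in Control iWAT and 1.16 to 8.94 in Ai-α4KO iWAT, and 0.944 to 3.14 and 2.86 to 8.52 in BAT.

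**Figure D4:**
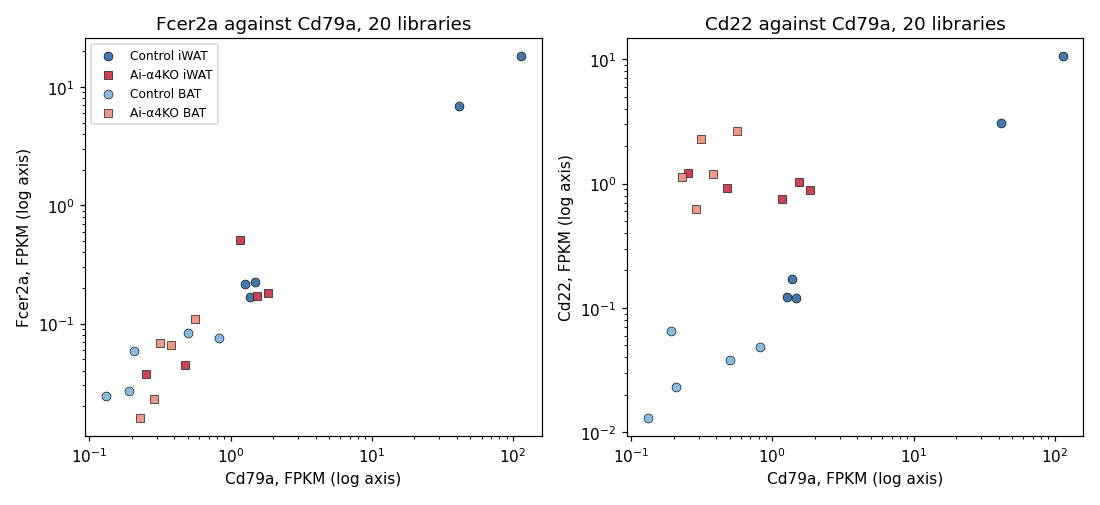
FPKM of Fcer2a (left) and Cd22 (right) against FPKM of Cd79a in 20 libraries, all axes logarithmic, with circles for Control and squares for Ai-α4KO libraries. Fcer2a follows Cd79a in all 4 groups, whereas Cd22 of the Ai-α4KO libraries lies above the line of the Control libraries.

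Correlations across libraries set Cd22 lowest over all 20 and divided the genes otherwise over 18. Over all 20 libraries, Pearson correlations of log2 CPM among the 21 pairs without Cd22 ran from 0.88 to 0.98, and the 7 pairs with Cd22 from 0.48 to 0.79. Without Control iWAT libraries 1 and 4 the pairs without Cd22 ran from 0.37 to 0.93, and Cd22 correlated with Cd79a at 0.04, with Fcer2a at -0.01, with Cd79b at 0.77 and with Blk at 0.78. Cd79b and Blk correlated with Cd79a at 0.47 and 0.48 over these 18, and with each other at 0.93. The libraries share tissue and genotype, so these values describe groups as well as single libraries.

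Whether the genotype difference itself differed between the depots was tested as an interaction term over the 20 libraries. Cd22 differed by 6.76 on the log2 scale (standard error 1.40, adjusted p = 0.00422 by edgeR), higher in BAT than in iWAT, and was 1 of 7 genes called where 4.86% of 15230 genes were. Without Control iWAT libraries 1 and 4 the difference was 2.63 (standard error 0.57, adjusted p = 0.00822 by edgeR). The other 6 had log2 differences of 3.73 to 6.08 and adjusted p between 0.0175 and 0.0818 by edgeR with all libraries, and differences of -0.02 to 1.27 without the 2. Of these 6, Cr2, Fcer2a and Blk entered the fit through their iWAT levels, having failed the filter within BAT. DESeq2 called 4 of the 7 with all libraries, where it called 10.8% of all genes. Without Control iWAT library 2, 3 or 5, edgeR called 3, where 4.42%, 5.53% and 4.23% of all genes were called. The adjusted p of Cd22 ran from 6.90e-06 to 0.0173 over 12 alternatives, 1 of which ended the call.

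Between depots, Control BAT was lower than Control iWAT in all 7 genes tested, where 15.4% of genes were lower, with log2 differences of -6.18 (Cd79a), -4.93 (Cd79b), -4.83 (Ms4a1) and -5.95 (Cd22) for the 4 that also passed the filter within BAT. Cr2, Fcer2a, Blk and Cd22 passed the filter over 20 libraries through groups other than Control BAT, so the filter partly fixed their direction. In Control BAT they had 0 to 3, 2 to 7, 2 to 5 and 2 to 9 counts per library, and their fitted differences depend on these few reads. Without Control iWAT libraries 1 and 4, 3 of 7 stayed called, where 12.5% of genes were, namely Cd79b (-1.16, adjusted p = 0.0065 by edgeR), Cd22 (-1.71, adjusted p = 0.0071) and Blk (-1.79, adjusted p = 0.00396). Cd79a differed by -1.74 (adjusted p = 0.0202 by edgeR) and Cr2 by -3.22 (adjusted p = 0.0237). By mean CPM the order of groups with all libraries was Control iWAT, Ai-α4KO iWAT, Control BAT and Ai-α4KO BAT for Cd79a and Fcer2a, but Control iWAT, Ai-α4KO BAT, Ai-α4KO iWAT and Control BAT for Cd22. For Cd79a each group overlapped with the next in that order, and for Cd22 the 2 Ai-α4KO groups overlapped with each other and with Control iWAT, which ran from 0.586 to 49.7 CPM. Without libraries 1 and 4, Control iWAT averaged 0.705 CPM of Cd22 and came after both Ai-α4KO groups (4.33 and 7.55), while it stayed first for Cd79a (2.08) and Fcer2a (0.544).

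Within Control BAT, the libraries numbered 1 and 4 were the 2 highest of 5 in 7 of the 8 genes, Cd22 being the exception, as they were in 10.8% of all genes tested. Cd79a was at 1.37 and 0.846 CPM there and at 0.235 to 0.362 in libraries 2, 3 and 5. The same 2 libraries were highest in 4 of 9 plasma cell, 4 of 6 endothelial, 5 of 15 B cell surface and 2 of 14 T cell genes. These numbers are those of the 2 Control iWAT libraries that stood apart, and whether they mark the same mice was not stated.

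Other genes of the B cell pathway were counted in the same way. Over all genes tested, 11.3% were called higher and 10.7% lower in iWAT, 11.9% and 11.8% without Control libraries 1 and 4, and 18.2% and 13.3% in BAT, and the counts of each list that follows are to be read beside these shares. Of 18 further genes of B cell receptor signaling, 9 were called higher and none lower in Ai-α4KO iWAT (median log2 fold change 1.28, against 0.01 over all genes), 11 without Control libraries 1 and 4, and 13 of 17 tested in BAT (median 2.89, against -0.03 over all genes). Those higher in both tissues included Lyn, a Src family kinase that phosphorylates CD22 tails (log2 fold changes 1.99 and 1.71, adjusted p = 5.70e-06 and 1.38e-06 by edgeR), and Ptpn6, the phosphatase SHP-1 that docks there (1.59 and 3.74, adjusted p = 0.00238 and 8.26e-08). Bcl10, an adaptor to NF-κB, stayed under 2-fold (0.99 and 0.87), and Cd81, a tetraspanin, had -0.19 and -0.73. Lyn and Ptpn6 are also expressed by myeloid cells.

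Of 15 further B cell surface and antigen-handling genes, 5 were higher in iWAT (Cd40, Cd180, Ly86, Cd24a and Fcgr2b, median log2 fold change 0.12), 9 without libraries 1 and 4 (median 1.60) and 11 of 13 in BAT (median 2.62), with none lower. Fcgr2b, the inhibitory Fc receptor, had log2 fold changes of 2.87 and 4.46 (adjusted p = 1.10e-05 and 1.12e-07 by edgeR), Ly86, the partner of RP105, 2.54 and 4.47, and Cd24a 1.97 and 2.62 in iWAT and BAT. Cd55, a complement regulator, had 0.12 and 0.99 and was not called. Other members of the list, named after their values were seen, lay far below 0 in iWAT with all libraries without being called, among them Tnfrsf13c (-4.55, adjusted p = 0.0103 by edgeR), Faim3 (-4.37), H2-Oa (-2.32), H2-Ob (-2.30) and Fcrl1 (-2.15). Without libraries 1 and 4 these genes had, in that order, -0.49, 0.14, 0.58, 0.46 and 1.07, and none of them was called. Of 13 transcription factors, 2 were higher (Spi1 and Ikzf1) and 1 lower (Foxo1) in iWAT, and 6 were higher and 2 lower of 12 in BAT. Of these 6, Spib, Bcl11a and Pou2f2, at most 0.0770, 0.0181 and 0.156 FPKM in Control BAT, passed the filter there through Ai-α4KO libraries. That partly fixed their direction. Pou2af1 (-4.19, adjusted p = 0.0128 by edgeR), Ikzf3 (-1.76) and Spib (-1.55) lay below 0 in iWAT with all libraries, uncalled (list median -0.73). Without libraries 1 and 4 they had -0.31, 0.53 and 2.96. All were named after their values were seen. Spi1, which encodes PU.1 in myeloid and B cells, rose (1.86 and 3.63), Foxo1 fell (-1.37 and -1.61), Ebf1, which adipocyte precursors also express, fell in BAT (-1.28) and had -0.73 in iWAT, and Ets1 had -0.84 and -0.65. With the 2 libraries left out of iWAT, 5 factors were higher (Spib, Spi1, Ikzf1, Bcl11a and Irf8) and Foxo1 was lower.

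Of 9 plasma cell genes listed in the table, 2 were higher (Prdm1 and Sdc1) and 1 lower (Igj, the joining chain) in iWAT, where 11.3% and 10.7% of all genes were, and 3 were higher (Prdm1, Xbp1 and Sdc1) and 1 lower (Irf4) of 6 in BAT. Igj was at 10.3 and 2.77 FPKM in Control iWAT libraries 1 and 4, and its call (-2.88, adjusted p = 0.00642 by edgeR) was lost without them (-1.67, adjusted p = 0.032). Mzb1 (-3.86, adjusted p = 0.0149 by edgeR) and Pou2af1 (-4.19), named after their values were seen, were not called in iWAT (list median -1.30). Without libraries 1 and 4 they had -0.40 and -0.31. The immunoglobulin constant region genes Ighm, Ighd, Igkc, Igha, Ighg2b and Iglc2 were looked up by name and had no entry among the listed genes. Of 10 germinal center genes, 4 of 7 tested were higher in each tissue, S1pr2, Basp1 and Stap1 in both, Fas in iWAT and Gcsam in BAT, while Bcl6 fell in BAT (-1.10). Of 5 genes of the B cell survival factors BAFF and APRIL and their receptors, Tnfsf13, which encodes APRIL, was called higher in iWAT (1.02) and both Tnfsf13 (1.40) and Tnfsf13b, which encodes BAFF (1.05), in BAT. Only Tnfsf13 and Tnfsf13b of the 5 passed the filter within BAT. Without libraries 1 and 4 none was called in iWAT, and Tnfsf13 had 0.89 (adjusted p = 0.00383 by edgeR). Tnfrsf13b, which encodes the receptor TACI, had 1.07 (adjusted p = 0.26 by edgeR) with all libraries and 2.51 without them.

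Cxcl13, the chemokine that draws CXCR5-bearing B cells, was at 72.3 to 334 FPKM in Ai-α4KO iWAT and at 17.3 to 56.5 in all Control iWAT libraries, with a log2 fold change of 2.72 (adjusted p = 4.50e-04 by edgeR). In BAT it was at 32.0 to 194 against 1.53 to 5.50 FPKM (4.57, adjusted p = 6.82e-06 by edgeR). Its receptor gene Cxcr5 was at 0.0983 to 0.311 FPKM in Ai-α4KO iWAT. Of the 12 lymphoid chemokine and receptor genes, 2 of 11 tested were higher in iWAT (Cxcl13 and Cxcl12) and none lower. S1pr1, the receptor that guides lymphocyte exit and is also endothelial, had -0.58 in iWAT and was called lower in BAT (-1.14, adjusted p = 2.81e-04 by edgeR), and Ltbr, the lymphotoxin receptor gene, had 0.11 and -0.17. Of the 15 stroma and venule genes, 2 of 11 were higher in iWAT (Cxcl13 and Pdpn), 3 without libraries 1 and 4 (Clu as well), and 4 of 9 in BAT (Cxcl13, Clu, Pdpn and Lyve1). Mfge8, the most abundant of the list, had -0.58 and 0.59 and was not called. Glycam1 did not pass the filter in either tissue.

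Markers of other cells moved with genotype as well, against the same shares of all genes. All 10 macrophage genes were called higher in both tissues (median log2 fold changes 2.01 and 3.95), and their summed level was 5961 to 7815 FPKM in Ai-α4KO iWAT against 954 to 1742 in Control, and 3291 to 5932 against 158 to 381 in BAT. Of the most abundant, Lyz2, C1qb and C1qa had log2 fold changes of 2.58, 1.56 and 1.47 in iWAT and of 4.23, 3.45 and 3.40 in BAT, and Mrc1 had 2.44 in iWAT. No macrophage gene was at 0 in every library of a group. Of 14 T cell genes none was called in iWAT by edgeR (median -2.20), 4 were higher without libraries 1 and 4 (Cd4, Cd28, Zap70 and Tcf7, median 1.08) and 9 of 12 were higher in BAT. Lef1 and Zap70, named here after their values were seen, were at most 0.0679 and 0.0850 FPKM in Control BAT. They passed the filter there through Ai-α4KO libraries, which partly fixed their direction, so the count of 9 is a description. Cd3g, Cd3d and Lck had -1.90, -2.11 and -2.29 in iWAT with all libraries, 1.36, 1.51 and 1.18 without the pair, and rose by 1.80, 2.40 and 1.91 in BAT. The T cell sum was 10.1 to 31.5 FPKM in Ai-α4KO iWAT and 5.82 to 6.85 in Control libraries 2, 3 and 5. Adipocyte genes were lower (8 of 10 in each tissue), as were 5 of 6 brown adipocyte genes in iWAT (Ucp1, Cidea, Ppargc1a, Elovl3 and Cox7a1), 2 of 6 in BAT (Ucp1 and Cidea), and 3 of 6 endothelial genes in iWAT (Cdh5, Kdr and Cldn5) and 4 of 6 in BAT (Tek as well). Skeletal muscle genes were higher in BAT (7 of 10) and none was called in iWAT. Of the most abundant of these lists, Cfd, Adipoq and Cidec fell in both tissues (-2.52, -2.21 and -1.47 in iWAT, and -2.26, -2.15 and -1.22 in BAT), while Fabp4 stayed under 2-fold (-0.72 and -0.41). Cox7a1 fell in iWAT (-3.50) and was not called in BAT (-1.08), and Dio2 was called in neither (-2.46 and 0.40). Mylpf, Acta1, Pvalb and Tnnt3 of muscle rose by 2.06, 1.94, 2.04 and 2.36 in BAT. Pecam1 (-0.54 and -0.90) and Emcn (-0.36 and -0.69), of endothelium, stayed under 2-fold. The part of these cell types in the values of Cd22, Cd79b and Blk was not tested.

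The genes most like the mean of the 8, by Pearson correlation of log2 CPM over 20 libraries, were Chst3 (0.97), Tnfrsf13c, the BAFF receptor gene (0.96), H2-Ob, a class II antigen-loading chain (0.95), and Lat, a T cell adaptor (0.95). Cd3e, Bach2, Gimap3, Cxcr5, Rhof and Bcl11b followed at 0.93. Without Control iWAT libraries 1 and 4 the 10 correlations were 0.58 to 0.82. Tnfrsf13c was at 9.80 and 5.55 FPKM in those libraries and at most 0.294 in the other 18. The genes most like Cd22 over the 18 remaining libraries, looked up after its values were seen, began with Cxcl16, a chemokine (0.99), and included Tnfrsf9, the costimulatory receptor 4-1BB (0.98). Cxcl16 was at 19.7 to 35.7 FPKM in Ai-α4KO iWAT and 4.95 to 5.38 in Control libraries 2, 3 and 5, and at 16.1 to 38.8 against 1.86 to 2.54 FPKM in BAT.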

How the data were processed

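RNA of 20 libraries was analysed, 5 per tissue and genotype, grouped by the labels. The authors deposited an expected count per gene and library, a partly fractional read estimate without normalization (76.6% of nonzero values are whole), and an FPKM value, that count divided by transcript width and a library total. The submitters' processing notes name mm10, STAR 2.5.3a and bcl2fastq 2. The counting tool and annotation are not given in the sources used here. Counts (24023371 to 50384446 per library) were rounded and tested with edgeR 4.0.16 in R 4.3.3 (filterByExpr, TMM, quasi-likelihood test, no covariates, Benjamini-Hochberg adjustment over all genes tested) within each tissue, and over all 20 libraries for the interaction and the comparison of depots. Called genes had an adjusted p below 0.01 and, except for the interaction, at least a 2-fold change. Log2 CPM used a prior count of 2. The fit was also run on simulated counts in which no pair of libraries stood apart. That run therefore does not bear on the iWAT results for these genes. DESeq2 1.42.0, limma 3.58.1 on log2(FPKM + 1) and log2(FPKM + 0.1), other scalings and filters, a replicate block and left-out libraries were alternatives. Exact permutation tests were two-sided.

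The 8 genes and the other lists were chosen with earlier results of these data known. Named genes were the 8, Igbp1, the 4 of each other list with the highest mean FPKM, all called genes of a list where at most 5 were called, and the 10 most like the 8. Other names are said to have been chosen after their values were seen. P values measure the spread between libraries, which the labels describe as 5 samples per group without naming mice, and floors cover counting error only. Promoters come from RefSeq in GRCm38.p6, with entries for 5 of the 8 genes. Some results for single genes are not reported here.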

Additional observations from a re-analysis of the deposited data

Results flagged for a closer look

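Cd22 is given a closer look because its genotype difference was larger in BAT than in iWAT, by 6.76 on the log2 scale with all libraries (adjusted p = 0.00422 in edgeR's interaction test) and by 2.63 without Control iWAT libraries 1 and 4 (adjusted p = 0.00822). Of 12 alternatives, 1 ended the call, at an adjusted p of 0.0173. In BAT the level was higher in 5 of 5 Ai-α4KO libraries than in any Control library.

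In 2 of the 32 sets of 1 gene in 1 group, 1 library lay far from the other 4 by Dixon's criterion on log2 CPM, where chance marks about 1 in 20. Cd79b in Ai-α4KO BAT library 5 had a log2 CPM of 1.84, or 3.51 CPM against 1.86 to 2.03 in the others. Pax5 in Ai-α4KO BAT library 1 had a log2 CPM of -4.06, from a count of 0 where the others had 2 or 3. Control iWAT libraries 1 and 4 are not marked by this criterion, since a pair of high libraries leaves no single one apart.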

How the results depend on the processing

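Of the 8 genes, edgeR called 1 lower in Ai-α4KO iWAT. The count was 6 with DESeq2, at an adjusted p below 0.05 or in a joint fit of both tissues, 2 with a mean of at least 1 CPM, and 0 with no filter, robust estimation, either limma fit, a replicate block or without Control iWAT libraries 1 and 4 (0 to 2 when single libraries were left out, with 0 without Control library 1 or 4). Without that pair 1 was higher (Cd22), and log2 differences of the called test changed sign for Cd79b, Ms4a1 and Blk (0.55 each), Cr2 (0.26) and Cd22 (2.54). Cd22 also changed sign with limma on log2(FPKM + 0.1) (0.30), the block (0.66) and without Control iWAT library 1 (0.01), with single libraries left out giving -1.95 to 0.01. Log2 ratios of mean levels in iWAT without the pair were -0.54 (Cd79a), 0.63 (Cd79b and Blk), 0.65 (Ms4a1), 0.36 (Cr2), -0.26 (Fcer2a), -0.61 (Pax5) and 2.62 (Cd22).

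In BAT, 2 genes were called higher, and 1 in the joint fit, with limma on log2(FPKM + 1), with the block (Cd79b 1.28, adjusted p = 0.0181 by edgeR) or without 1 of 4 single libraries (range 1 to 3). Cd79a in BAT, at -0.30, turned to 0.11 and 0.00 with limma on log2(FPKM + 0.1) and log2(FPKM + 1), and ran from -0.53 to 0.17 with single libraries left out. In the interaction 1 gene was called, 4 with DESeq2, 0 with the block (Cd22 6.03, adjusted p = 0.0173 by edgeR) and 1 to 3 with single Control iWAT libraries left out, and Ms4a1 turned to -0.02 without the pair. Between depots 3 genes remained lower without the pair.

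Counts over all genes that moved by more than 1.5 times were those lower in iWAT (1559, but 779 with limma on log2(FPKM + 1)) and in BAT (1909, but 1265 without TMM factors, and 1205 and 807 with limma on log2(FPKM + 0.1) and log2(FPKM + 1)). For the interaction, 1254 higher and 386 lower with DESeq2 moved, as did those lower without TMM factors (115), with no filter (130), with upper-quartile scaling (147), without the pair (68) and with single libraries left out (111 to 264). The causes were not tested beyond what each alternative leaves out.

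Whether equal replicate numbers mark the same mice is not stated, and the samples were not treated as paired: at most 2 of 5 same-numbered pairs in any comparison of groups correlated above 0.1, and 1 to 4 of 10 libraries correlated best with their own number. With the replicate block, calls over all genes in iWAT numbered 1584 (higher) and 1461 (lower), and in BAT 2509 and 1834. With 2 to 9 counts per library, Cd22 in Control BAT is known only coarsely, and in the fit within BAT, Cr2, Fcer2a, Pax5 and Blk fell below the filter on low counts.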
